A study of Nicotiana tabacum with 12 samples.

Results

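The genes described here are the 92 tobacco genes that were lower in every transgenic leaf library than in every untransformed one. They were chosen by 3 limits on CPM, the usual unit in which the read count of a gene is scaled to the total of its library. The mean of the untransformed libraries had to be at least 5 CPM, the highest transgenic library had to lie below the lowest untransformed one, and the transgenic mean had to be at most 70% of the untransformed mean. Of 61526 genes in the count table, 25851 reached the CPM limit and 95 met all limits, and 3 of these were set aside by name. Those were ADC1A (arginine decarboxylase, an enzyme of polyamine synthesis), hqt (an enzyme of chlorogenic acid synthesis) and the wound-induced gene KED. Another 3 genes named for setting aside, SUT1, HSP101 and IPS, did not meet the limits. The members were selected on the difference between transgenic and untransformed leaves, so their levels and changes against untransformed leaves are given as a description and support nothing further.

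Leaves of Nicotiana tabacum cultivar TN90 were profiled by RNA sequencing in 12 libraries, 3 in each of 4 groups. P2.4a, P3.9a and P9.10a were the transgenic lines, all of them transformed with NtYb1 (EGY2) behind the 35S CMV promoter and descending, as green-stemmed segregants, from 1 primary transformant a line. The comparison group, CK, was TN90 that had not been transformed, so the transgene and the passage through transformation and regeneration cannot be told apart. All plants grew in the field at Oxford, North Carolina, and top leaves were frozen before maturity. The plant number given for P3 in the treatment text differs from that in the titles, and the text also speaks of inoculated roots. Groups here follow the titles.

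Burley tobacco carries recessive alleles at the Yb1 and Yb2 loci, which give pale stems and leaves low in chlorophyll, and it is known for using nitrogen less efficiently than other tobacco types. The EGY proteins, known from Arabidopsis, are metalloproteases of chloroplast membranes, and loss of the founding member there leaves plants pale green. The 35S promoter drives expression in most plant tissues. The study compared transformed and untransformed plants to look at carbon and nitrogen metabolism.

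Totals were 13536964 to 16788583 counts in transgenic libraries and 16657112 to 18444571 in CK libraries. Leaf mesophyll genes (7 genes, among them the Rubisco activases and chloroplast glyceraldehyde phosphate dehydrogenases) summed to 10686 to 15211 CPM in transgenic libraries and 12010 to 13520 CPM in CK, so the leaf markers were present at high levels in every library. The root marker TobRB7 stood at 0.498 to 1.91 CPM in transgenic libraries and 0.720 to 1.14 CPM in CK. The 6 flower markers summed to 30.6 to 70.5 CPM in transgenic libraries and 47.8 to 51.0 CPM in CK, nearly all of it FUL1, and SEP3 and GLO were at 0 in every library. Markers of dividing cells (8 genes) summed to 188 to 285 CPM in transgenic libraries and 172 to 213 CPM in CK. Of these, CycD3.1 (log2 change 0.43), CdkB1-2 (0.89) and 1 of 2 PCNA genes (0.79) were higher in the mean of the lines at an unadjusted edgeR p of 0.05, and none passed after adjustment. The trichome genes NtLTP3 and NtABS stood at log2 changes of -0.62 and 0.60, with edgeR adjusted p of 0.182 and 0.0760. The 3 vascular or stem markers summed to 203 to 253 CPM in transgenic libraries and 163 to 215 CPM in CK. No marker was a member, and the part of these cell types in the members' difference was not tested. Replicate 1 of P3.9a and replicate 3 of CK stand apart in how many genes were lower at an unadjusted edgeR p of 0.05. In the mean of the lines 2650 were lower with all libraries, 3617 without that P3.9a library and 1288 without that CK library. At an edgeR adjusted p of 0.05, 12 genes tested were called lower with all libraries (0.0306%) and 525 without that P3.9a library (1.32%). Without that CK library 7 were (0.0177%), while leaving out CK replicate 1 gave fewer, 4. The counts of members called in the mean of the lines and of genes meeting the rule are given below with and without them. Most other counts, among them those for neighbours and gene lists, are given with all libraries only. The EGY2 gene carries no symbol in the reference table, so the labels were not checked against the transgene. In bulk leaf RNA, fewer cells of a type and less RNA per cell cannot be told apart.

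The members were a small and mostly modest set. Genes lower in all 9 transgenic libraries than in all 3 CK libraries, with no limit on the fold, numbered 280 of the 25851 genes at the CPM limit (1.08%), and 471 genes (1.82%) lay above all CK libraries in the same way. With the fold limit 95 genes were lower and 65 were higher by its mirror image, so 59.4% of these genes were lower. With libraries scaled by TMM (edgeR's trimmed mean of M-values) instead of column totals, 174 were lower and 29 higher, or 85.7% lower. The median log2 ratio of transgenic mean to CK mean over the genes at the CPM limit was 0.07 by column totals and -0.01 by TMM. Under TMM 170 genes met the rule after the 6 names were set aside, 91 of the 92 members among them.

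Together the members took 0.486% of all counts in transgenic libraries and 0.744% in CK libraries. By library the share was 0.551%, 0.511% and 0.471% in P2.4a, 0.463%, 0.460% and 0.513% in P3.9a, 0.474%, 0.532% and 0.381% in P9.10a, and 0.735%, 0.694% and 0.807% in CK. The lowest CK library held more of its counts in these genes than the highest transgenic one, as the rule requires. The mean transgenic level of a member was 15.4% to 69.6% of its CK mean, with a median of 63.0%. In 60 members it lay between 60% and 70%, in 18 between 50% and 60%, and in 14 at or below 50%. Most members thus sat close to the limit that admitted them.

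The gap between groups was narrow for most members. The lowest CK value was 1.00 to 3.38 times the highest transgenic value, with a median of 1.1. It exceeded 1.1 in 44 members and 2 in 2, LOC107772409 and LOC107780718. CK means ran from 5.08 to 2053 CPM with a median of 19.1 CPM: 28 members lay under 10 CPM, 51 from 10 to 100 CPM and 13 above. All 92 passed the low-count filter of the fit, and the lowest count of any member was 6 in a transgenic library and 66 in a CK library.

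**Figure D1:**
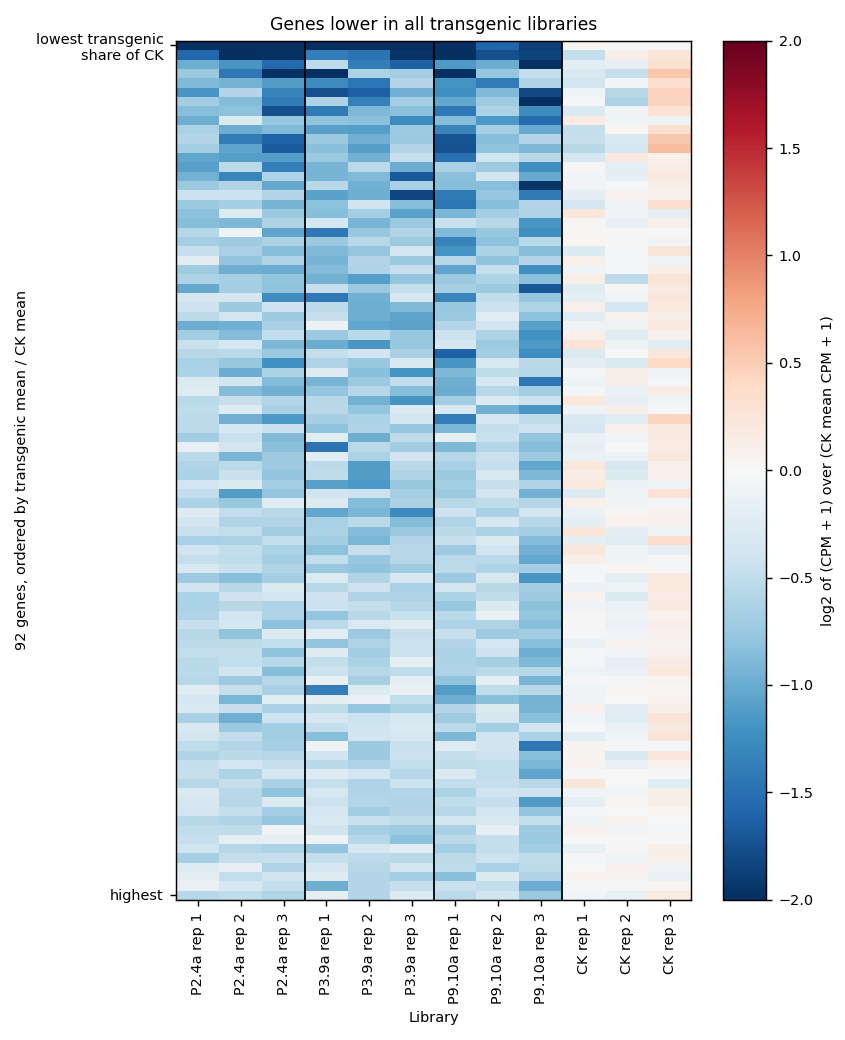
Rows are the 92 genes, ordered by transgenic mean over CK mean with the lowest at the top, and columns are the 12 libraries; colour gives log2 of (CPM + 1) over (CK mean CPM + 1), with values below -2 drawn in the darkest blue. The top 2 rows, LOC107772409 and LOC107780718, stand out in all 9 transgenic columns, and the CK replicate 3 column is the reddest of the CK columns.

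Of the members, 83 were protein-coding in the reference table (90.2%, against 91.6% of the genes at the CPM limit), 2 were long non-coding RNAs, 1 was a miscellaneous RNA and 6 identifiers were not in the table. The table gives a symbol for 1 member. That gene is ASF-1/G13 (LOC107815287). ASF-1 is the name of a tobacco DNA-binding activity of the TGA family of bZIP factors, first described by its binding to the as-1 element of the 35S promoter. Its levels were 4.54, 4.92 and 3.33 CPM in P2.4a, 4.27, 3.49 and 4.17 CPM in P3.9a, 3.67, 3.22 and 3.62 CPM in P9.10a, and 5.58, 6.02 and 5.32 CPM in CK. The highest transgenic value was in P2.4a and lay 1.08-fold under the lowest CK value. The transgenic mean was 69.4% of CK, just inside the limit, and edgeR's log2 change was -0.60 (SE 0.15, adjusted p = 0.118), which does not pass the threshold of 0.05.

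Other TGA factors with a symbol were looked up after ASF-1/G13 had been seen among the members, and none was a member. TGA2.2 (LOC107776910) averaged 6.64 ± 0.547 CPM in P2.4a, 6.94 ± 2.07 CPM in P3.9a, 5.75 ± 0.984 CPM in P9.10a and 7.24 ± 1.55 CPM in CK (SD, n = 3 each). TGA2.1 (LOC107782457) averaged 7.60 ± 0.172, 8.39 ± 1.47 and 6.81 ± 1.22 CPM in P2.4a, P3.9a and P9.10a, and 8.06 ± 0.995 CPM in CK (SD, n = 3 each). The groups overlapped in both genes. Their log2 changes in the mean of the lines were -0.24 (SE 0.17, edgeR adjusted p = 0.629) and -0.17 (SE 0.14, edgeR adjusted p = 0.701). TGA10 was at 0 in all libraries but 1 of P3.9a.

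The deepest differences belonged to genes known only by identifier. LOC107772409 had 2.80, 2.59 and 1.5 CPM in P2.4a, 1.17, 1.55 and 1.73 CPM in P3.9a, 1.62, 4.27 and 3.32 CPM in P9.10a, and 15.5, 14.6 and 14.5 CPM in CK. These are 17 to 65 counts per transgenic library and 242 to 270 per CK library. The CK libraries were nearly equal, and every transgenic library lay at least 3.38-fold under them. Its transgenic mean was 15.4% of CK, and edgeR's log2 change was -2.83 (SE 0.21, adjusted p = 4.79e-05). LOC107780718 had 4.61, 3.22 and 3.26 CPM in P2.4a, 5.44, 4.97 and 3.28 CPM in P3.9a, 1.68, 3.94 and 3.62 CPM in P9.10a, and 11.0, 17.3 and 18.8 CPM in CK. Here the CK libraries were themselves spread, with replicate 1 the lowest at 183 counts. Its transgenic mean was 24.1% of CK, with a log2 change of -2.15 (SE 0.23, edgeR adjusted p = 0.00289).

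These were 2 of the 7 members at or below 50% of CK in each of the lines taken alone. The others were LOC107827471, LOC107821077, LOC107766579, LOC107762094 and LOC107766900, and none of the 5 passed edgeR's threshold. LOC107827471, a long non-coding RNA, averaged 4.72 ± 1.11, 5.20 ± 2.68 and 4.23 ± 1.96 CPM in P2.4a, P3.9a and P9.10a, against 12.3 ± 2.88 CPM in CK (SD, n = 3 each; edgeR adjusted p = 0.0761). LOC107766579 averaged 2.26 ± 0.274, 2.09 ± 1.03 and 2.17 ± 0.955 CPM in the same lines, against 5.42 ± 1.58 CPM in CK (SD, n = 3 each; edgeR adjusted p = 0.0663). In both, the line means lay close together.

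LOC107821077 was the most uneven member. It had 5.23, 2.84 and 0.653 CPM in P2.4a, 1.31, 5.68 and 5.48 CPM in P3.9a, 0.374, 5.06 and 6.35 CPM in P9.10a, and 7.38, 6.56 and 14.2 CPM in CK. Within each line at least 1 library stood far below its companions, down to 6 counts in P9.10a, and CK replicate 3 stood well above the other CK libraries. Its edgeR adjusted p was 0.448, the highest of any member, although its transgenic mean was 39.0% of CK.

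LOC107762094 and LOC107766900 had the same feature on the CK side. LOC107762094 averaged 32.2 ± 9.58 CPM in P2.4a, 24.0 ± 7.84 CPM in P3.9a and 26.7 ± 8.42 CPM in P9.10a (SD, n = 3 each). In CK it had 61.7, 44.1 and 89.6 CPM, and its lowest CK value was 1.02 times its highest transgenic value, 43.1 CPM. LOC107766900 averaged 14.8 ± 5.12, 15.4 ± 3.36 and 15 ± 4.95 CPM in P2.4a, P3.9a and P9.10a (SD, n = 3 each), against 26.3, 31.2 and 39.8 CPM in CK. In both genes CK replicate 3 was the highest library of all.

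Another 5 members complete the 12 with the lowest share of CK. LOC107815673 stood at 44.1% of CK, LOC107785552 at 47.4%, LOC107820468 at 47.8%, LOC107766937 at 48.0% and LOC107810534 at 48.9%. LOC107815673 showed the smallest gap of all members, with a highest transgenic value of 5.09 CPM and a lowest CK value of 5.10 CPM, 1.00-fold apart. LOC107820468 had 3.11 to 5.67 CPM in transgenic libraries and 6.42, 9.60 and 11.9 CPM in CK. Of these 5, only LOC107785552 passed edgeR's threshold.

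In the fit over 39207 genes, 10 of the 92 members were called lower in the mean of the 3 lines at a Benjamini-Hochberg adjusted p of 0.05. Over all genes tested, 12 were called lower (0.0306%) and 3 higher. Since the rule used the same contrast, the members' share is not read against that background. The log2 changes of the members ran from -2.83 to -0.60 with a median of -0.75, beside a median of 0.00 over all genes tested. At an unadjusted p of 0.05, 91 members were lower, beside 6.76% of all genes tested, and at an adjusted p of 0.1 70 members were, beside 164 genes in all. The other 2 genes called lower, LOC107824351 and LOC107786104, averaged 2.64 and 1.5 CPM in CK and were thus under the limit on the CK mean.

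Of the 10, LOC107772409 and LOC107780718 are described above. LOC107775428 had 59.1, 53.8 and 48.2 CPM in P2.4a, 43.2, 41.8 and 44.6 CPM in P3.9a, 50.8, 47.5 and 45.7 CPM in P9.10a, and 72.4, 75.9 and 72.9 CPM in CK (log2 change -0.69, SE 0.09, edgeR adjusted p = 0.0158). Its libraries were tight in every group and P3.9a was the lowest line. LOC107796972, the other long non-coding RNA, had 22.6, 26.0 and 26.3 CPM in P2.4a, 25.9, 25 and 24.5 CPM in P3.9a, 25.1, 26.9 and 25.4 CPM in P9.10a, and 35.3, 34.9 and 39.2 CPM in CK. It was the steadiest member across the transgenic libraries, with a coefficient of variation (CV) of 4.93% over the 9. Its log2 change was -0.60 (SE 0.09, edgeR adjusted p = 0.0278).

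The remaining called members lay between 47.4% and 68.6% of CK. LOC107831715 averaged 44.6 ± 4.19, 38.5 ± 3.30 and 42.3 ± 2.14 CPM in P2.4a, P3.9a and P9.10a, against 65.1 ± 10.5 CPM in CK (SD, n = 3 each). LOC107809266 averaged 50.6 ± 1.74, 47.1 ± 2.18 and 44.5 ± 7.27 CPM in the lines, against 69.3 ± 5.76 CPM in CK (SD, n = 3 each). LOC107823701 averaged 18.3 ± 1.32, 19.0 ± 1.35 and 19.0 ± 0.654 CPM in the lines, against 27.3 ± 4.60 CPM in CK (SD, n = 3 each). The fitted log2 range over the lines was 0.27 for LOC107831715, 0.19 for LOC107809266 and 0.06 for LOC107823701, beside a median of 0.27 over the members. The CK libraries were the more spread ones for LOC107831715 and LOC107823701.

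LOC107785552 had 3.42, 6.12 and 4.18 CPM in P2.4a, 3.99, 3.87 and 2.62 CPM in P3.9a, 3.86, 2.96 and 1.99 CPM in P9.10a, and 8.83, 7.21 and 7.17 CPM in CK (log2 change -1.17, SE 0.18, edgeR adjusted p = 0.0436). LOC107800610 had 51.7, 49.9 and 45.8 CPM in P2.4a, 41.1, 36.6 and 45.9 CPM in P3.9a, 47.5, 51.8 and 44.4 CPM in P9.10a, and 87.0, 55.3 and 97.1 CPM in CK (log2 change -0.88, SE 0.14, edgeR adjusted p = 0.0436). CK replicate 2 came close to the transgenic libraries for LOC107800610, while the other CK libraries stood far above.

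**Figure D2:**
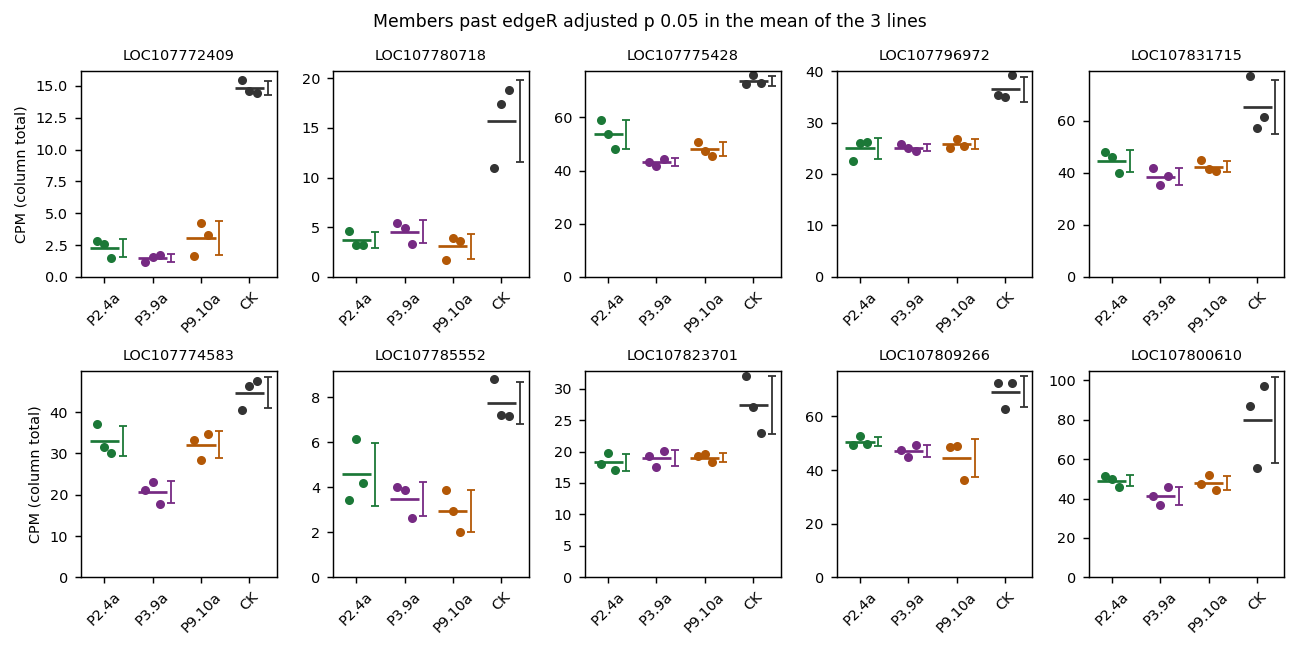
Each panel gives CPM by library total for 1 of the 10 members past the edgeR threshold; points are libraries in P2.4a, P3.9a, P9.10a and CK, lines are means and bars 1 SD (n = 3). LOC107772409 and LOC107780718 show the widest gaps, and LOC107796972 and LOC107823701 the most level transgenic groups.

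The number of called members depended strongly on single libraries and on the tool. It was 80 without P3.9a replicate 1, beside 525 genes lower in all, and 29 without P9.10a replicate 2, beside 38. Without CK replicate 3 it was 3, beside 7, and without CK replicate 1 it was 2, beside 4. These fits tested 39628 to 39708 genes. DESeq2 called 84 members, beside 337 genes lower in all (0.86%). Without both P3.9a replicate 1 and CK replicate 3, an alternative chosen after seeing the data, edgeR called 8 members. Beside them it called 22 genes lower in all, of 39493 tested. LOC107772409 and LOC107780718 were called in all 12 fits that left out 1 library. In at least 1 of these fits 81 members were called, 80 of them in the fit without P3.9a replicate 1. The same counts across fits were not made over all genes.

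Line by line, edgeR called 1 member lower in P2.4a (beside 0.0051% of all genes), 5 in P3.9a (0.0204%) and 2 in P9.10a (0.00765%), with the CK libraries shared by these contrasts. LOC107772409 was called in each line, at log2 changes of -2.74 for P2.4a, -3.42 for P3.9a and -2.33 for P9.10a. The median member stood at 65.3% of CK for P2.4a, 62.7% for P3.9a and 61.9% for P9.10a, and 12, 15 and 17 members were at or below 50% in these lines. The lowest line mean was in P2.4a for 25 members (27.2%, beside 39.0% of the genes at the CPM limit), in P3.9a for 30 (32.6%, beside 26.2%) and in P9.10a for 37 (40.2%, beside 34.8%).

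**Figure D3:**
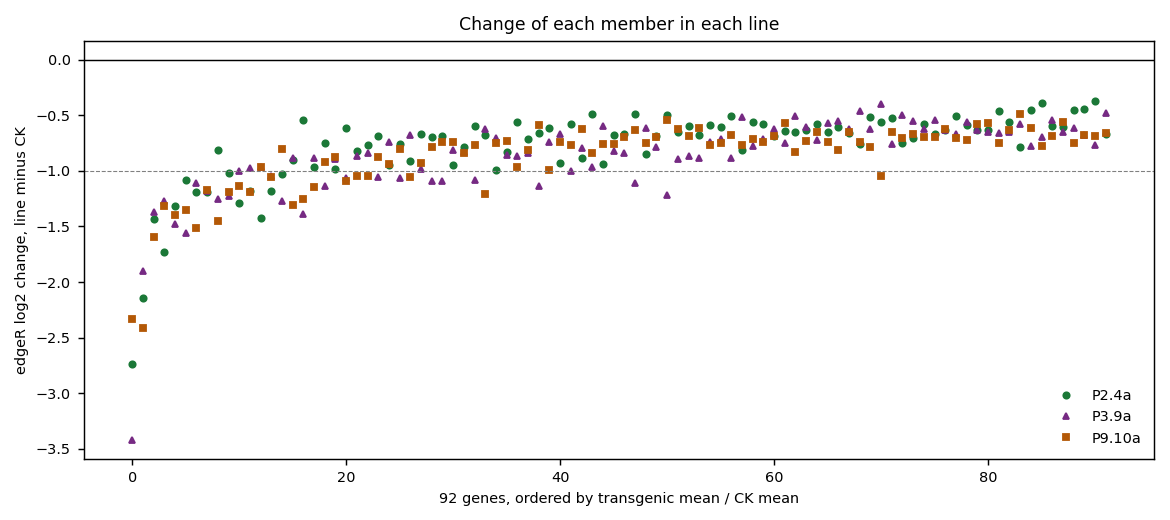
Fitted edgeR log2 change of each of the 92 genes in each line minus CK, ordered from the lowest transgenic share of CK (left) to the highest (right). All points lie below 0, and the 3 lines of a gene lie within 0.25 of each other for 41 genes.

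Differences among the lines were not part of the rule, apart from its limit on the highest transgenic library. The effect of that limit on them was not tested. The F test among lines in edgeR called none of the 92 members at an adjusted p of 0.05, beside 3 genes of all tested (0.00765%). DESeq2 called 1 member and 46 genes. At an unadjusted p of 0.05 the F test passed 8 members (8.70%), beside 1134 genes (2.89%), and the lowest adjusted p of a member was 0.564. The fitted range over the lines had a median of 0.27 on the log2 scale, was under 0.25 in 41 members and over 0.5 in 9. The line-against-line differences had medians of 0.08 for P2.4a minus P3.9a, 0.09 for P2.4a minus P9.10a and 0.01 for P3.9a minus P9.10a, and edgeR called no member in any of the 3.

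The member with the smallest among-line p was LOC107774583. It had 37.2, 31.6 and 30.2 CPM in P2.4a, 21.2, 23.2 and 17.9 CPM in P3.9a, 33.4, 28.3 and 34.6 CPM in P9.10a, and 40.5, 46.3 and 47.4 CPM in CK. The P3.9a libraries did not overlap those of the other lines, and edgeR's quasi-likelihood F test gave an adjusted p of 0.564 (unadjusted p = 0.00036). This was the member that DESeq2 called, with an adjusted p of 0.0153 among lines and 0.0239 for P2.4a minus P3.9a, so its call depends on the tool. LOC107783407 had the same order, with 90.0 ± 12.8 CPM in P2.4a, 60.8 ± 9.21 CPM in P3.9a, 81.6 ± 6.31 CPM in P9.10a and 122 ± 15.5 CPM in CK (SD, n = 3 each; edgeR F test unadjusted p = 0.00403).

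Other members were uneven in other ways. LOC107783543 was higher in P2.4a, at 56.2 ± 3.41 CPM, than in P3.9a and P9.10a, at 32.5 ± 9.74 and 34.4 ± 9.52 CPM, with CK at 78.6 ± 7.93 CPM (SD, n = 3 each; edgeR F test unadjusted p = 0.00387). LOC107816203 was lowest in P9.10a, at 8.95 ± 0.519 CPM, with 12.5 ± 3.14 CPM in P2.4a, 14.6 ± 2.04 CPM in P3.9a and 17.8 ± 0.886 CPM in CK (SD, n = 3 each; edgeR F test unadjusted p = 0.00716). LOC107772409, with the largest range over lines of all members at 1.09, was lowest in P3.9a (edgeR F test unadjusted p = 0.0210). None of these differences passed in edgeR after adjustment over all genes tested.

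CPM is not corrected for gene length, so the following ranks reads and not transcripts. LOC107795866 took the most reads of all members, at 1858, 1624 and 1468 CPM in P2.4a, 1040, 1369 and 1489 CPM in P3.9a, 1505, 1461 and 1036 CPM in P9.10a, and 2014, 2007 and 2139 CPM in CK. CK was tight and the transgenic libraries ranged widely, with P3.9a replicate 1 and P9.10a replicate 3 the lowest. It is also among the 3 members nearest the fold limit, at 69.5% of CK. LOC107804482 averaged 387 ± 24.1, 496 ± 58.0 and 402 ± 115 CPM in P2.4a, P3.9a and P9.10a, against 654 ± 87.4 CPM in CK (SD, n = 3 each). LOC107804268 averaged 357 ± 7.58, 372 ± 46.3 and 361 ± 55.0 CPM in the lines, against 532 ± 92.7 CPM in CK (SD, n = 3 each).

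The next members by reads were LOC107776343, LOC107790903 and LOC107814518. LOC107776343 averaged 259 ± 19.0, 250 ± 23.1 and 236 ± 43.2 CPM in P2.4a, P3.9a and P9.10a, against 379 ± 29.2 CPM in CK (SD, n = 3 each). LOC107790903 averaged 203 ± 23.2, 243 ± 34.0 and 205 ± 58.4 CPM in the lines, against 377 ± 30.0 CPM in CK (SD, n = 3 each). Both were separated from CK by a gap of about the same size, 1.31-fold and 1.30-fold. None of these 6 members passed edgeR's threshold, and the nearest was LOC107776343 at an adjusted p of 0.0513.

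At the fold limit, the members just inside were LOC107795866 and LOC107787543 at 69.5% and LOC107765435 at 69.6%. The genes just outside that met the other limits were LOC107770846 at 70.1%, LOC107761817 at 70.3% and the sucrose transporter gene SUT1 at 70.3%. At the CPM limit, LOC107791111 and LOC107796858 were inside with CK means of 5.08 and 5.27 CPM, and LOC107822360 and LOC107779902 outside with 4.77 and 4.62 CPM. LOC107822360 stood at 55.8% of CK, lower than most members. The values run on across both limits without a step.

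The following values of spread come from the libraries that selected the members, so they describe the members and are no separate finding. The median CV of the members was 14.1% for P2.4a, 15.8% for P3.9a, 21.9% for P9.10a and 12.7% for CK, where the genes at the CPM limit had 10.7%, 14.7%, 12.4% and 10.3%. Over all 9 transgenic libraries the median CV was 18.9% for members and 13.7% for the genes at the limit. The CV over CK libraries ran from 0.621% for LOC107824408 to 48.1% for LOC107810534, and was over 25% in 13 members.

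The rule used the value of every library, so a gene high in 1 CK library passes it more easily, and the pattern within groups is likewise a description. Each library was set against the mean of the other 2 of its group on the log2(CPM + 1) scale. P9.10a replicate 2 was above its companions in 82 of the 92 members, by a median of 0.28, while the genes at the CPM limit stood at -0.01. P9.10a replicate 3 stood at a median of -0.23, beside -0.09 for those genes, and P2.4a replicate 3 at -0.16, beside 0.05. In CK, replicate 3 was above its companions in 70 members, by a median of 0.18, beside -0.05. The members were thus highest, among the CK libraries, in the one where genes in general were slightly low.

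CK replicate 3 held the highest CK value in 60 members, CK replicate 1 in 22 and CK replicate 2 in 10. The highest transgenic value was most often in P3.9a replicate 1, in 21 members, and in P9.10a replicate 2, in 19. Without CK replicate 3, 68 of the 92 still met the rule, among 94 genes in all. Without P3.9a replicate 1, 89 of the 92 did, among 219 genes, and without CK replicate 2, 88 did, among 284. The part of single libraries in the members' difference was not tested further.

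**Figure D4:**
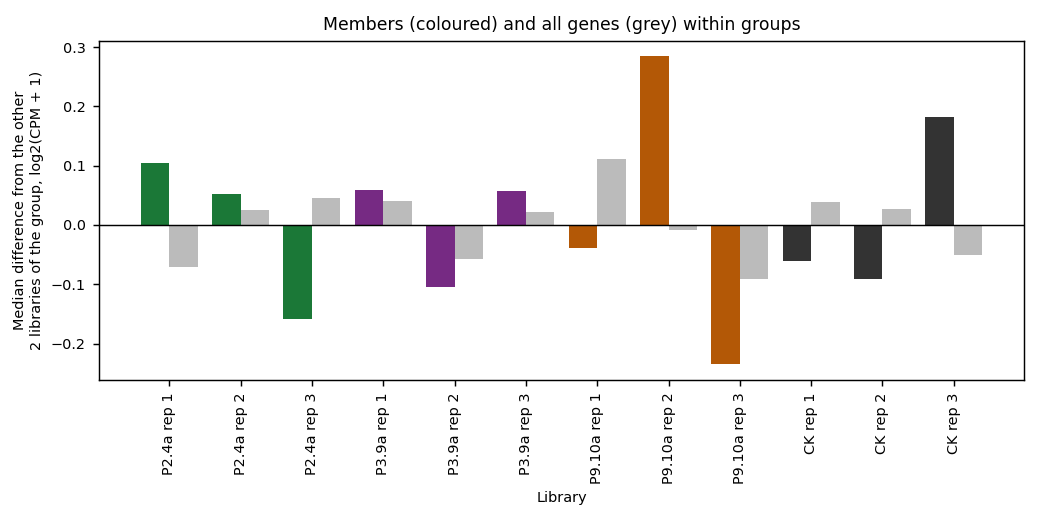
For each library, the median over genes of log2(CPM + 1) minus the mean of the other 2 libraries of its group, for the 92 members (coloured) and for genes with a CK mean of at least 5 CPM (grey). P9.10a replicate 2 and CK replicate 3 are high for the members, at 0.28 and 0.18, and near or below 0 for the genes in grey, which include the members.

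Deviations from group means over the 12 libraries gave a mean pairwise correlation of 0.19 among members, beside 0.05 among the genes at the CPM limit. The libraries of a group share those means, so the values are a description. Of the 4186 member pairs 22.3% correlated above 0.5 and 3.49% below -0.5. For pairs of all genes at the CPM limit, members included, the shares were 18.1% and 13%. The scarcity of opposed pairs was thus the larger contrast. The closest pair was LOC107810534 and LOC107803257, at a correlation of 0.96 over 12 libraries, and LOC107787070 correlated with them at 0.94 and 0.95. These 3 were singled out after their values were seen.

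LOC107810534 had 22.5, 17.2 and 10.9 CPM in P2.4a, 20.1, 16.6 and 24.2 CPM in P3.9a, 10.3, 20.7 and 19.4 CPM in P9.10a, and 24.6, 28.6 and 57.0 CPM in CK. LOC107787070 had 47.1, 34.7 and 30.4 CPM in P2.4a, 42.7, 43.8 and 52.8 CPM in P3.9a, 25.5, 54.1 and 47.7 CPM in P9.10a, and 55.2, 57.6 and 92 CPM in CK. Replicate 3 of CK was far above the other CK libraries in both, and replicate 3 of P2.4a and replicate 1 of P9.10a were the lowest of their lines. LOC107803257 followed the same course, with 5.55 to 11.3 CPM in transgenic libraries and 12.2, 11.4 and 19.0 CPM in CK.

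By gene order in the reference assembly, 84 members could be placed on a chromosome. Their direct neighbours that were not members numbered 167, of which 109 were in the count table and 82 were tested. These were not chosen by the rule. EdgeR called none of them in the mean of the lines. At an unadjusted p of 0.05 it passed 11 (13.4%), beside 11.4% of all genes tested in either direction. Of the 82, 9 were lower and 2 higher, where 6.76% of all genes tested were lower and 4.6% higher. The 9 include LOC107800611, which overlaps a member. The median log2 change of the neighbours was -0.02, and 46 of 82 were below 0. The lowest adjusted p, 0.146, belonged to LOC107774035, beside the member LOC107762094. It averaged 51.4 ± 4.08, 56.6 ± 14.1 and 52.0 ± 13.9 CPM in P2.4a, P3.9a and P9.10a, against 80.3 ± 19.8 CPM in CK (SD, n = 3 each), with a log2 change of -0.67 (edgeR SE 0.17).

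The closest pair of members in the gene order was LOC107793457 and LOC107788219, with 1 gene between them. LOC107793457 had 71.5, 63.0 and 60.3 CPM in P2.4a, 54.2, 74.3 and 80.3 CPM in P3.9a, 58.6, 67.3 and 57.9 CPM in P9.10a, and 85.1, 95.5 and 102 CPM in CK. LOC107788219 had 83, 76.2 and 66.2 CPM in P2.4a, 59.5, 82.6 and 83.9 CPM in P3.9a, 57.3, 81.6 and 68.8 CPM in P9.10a, and 92.3, 102 and 129 CPM in CK. In both, P3.9a replicate 1 was well below the other P3.9a libraries and CK replicate 3 was the highest of CK.

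The gene between them, LOC107791385, averaged 97.8 ± 7.36 CPM in P2.4a, 94.3 ± 24.0 CPM in P3.9a, 84.2 ± 3.19 CPM in P9.10a and 120 ± 14.4 CPM in CK (SD, n = 3 each). It was under all CK libraries in 8 of 9 transgenic libraries, with a log2 change of -0.47 (SE 0.15, edgeR adjusted p = 0.234). The next gene after the pair, LOC107788218, was at 0.138 to 2.05 CPM in transgenic libraries and 1.41 to 1.97 CPM in CK, with a log2 change of -0.95 (SE 0.40, edgeR adjusted p = 0.388). How reads of near-identical copies were assigned is not stated by the labels or files.

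**Figure D5:**
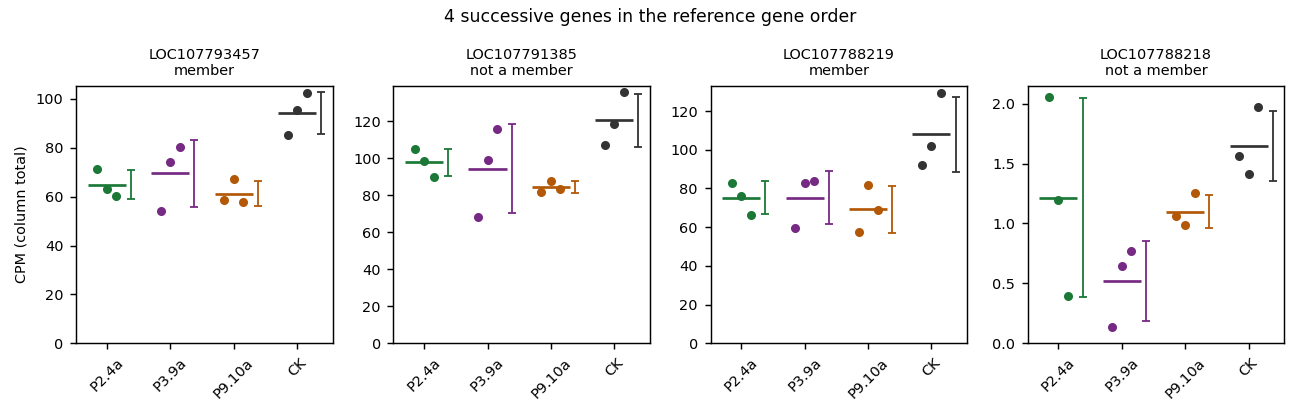
CPM by library total for 4 successive genes in the reference gene order, of which LOC107793457 and LOC107788219 are members; points are libraries, lines are means and bars 1 SD (n = 3). In the 3 genes with high counts, CK has the highest mean and P3.9a replicate 1 is the lowest of its group.

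In the reference table, 2 members overlap another gene. LOC107800610 overlaps LOC107800611, which averaged 2.14 ± 0.167, 1.84 ± 0.432 and 1.97 ± 0.674 CPM in P2.4a, P3.9a and P9.10a, against 3.28 ± 0.443 CPM in CK (SD, n = 3 each). All 9 transgenic libraries were under all CK libraries there too, with a log2 change of -0.80 (SE 0.21, edgeR adjusted p = 0.157). Since the use of strand in counting is not given, reads of these overlapping genes cannot be told apart. LOC107804268 overlaps a long non-coding RNA, LOC142181168, which was not analysed here.

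Of the 906 tested genes with a symbol, ASF-1/G13 was the 1 member (0.110%), beside 0.235% of all genes tested. Of the 906, 10 had a CK mean of at least 5 CPM and lay under all CK libraries in all 9 transgenic ones. Over all genes at the CPM limit, 280 of 25851 did (1.08%), and how many of the 906 reach that limit was not counted. The 3 named genes that met the limits and were set aside are not counted as members. The counts of 10 and 280 were made without setting any gene aside. The lists of genes by symbol, chosen with earlier results known and without the genes set aside, covered 15 themes. Of their 166 tested genes 0 were members, and the shares are too small to read anything about the members from them. EdgeR called 0 of the 166 in the mean of the lines. At an unadjusted edgeR p of 0.05, 25 (15.1%) were lower, beside 10.7% of the 906 with a symbol and 6.76% of all genes tested. Another 10 (6.02%) were higher, beside 3.86% of the 906 and 4.6% of all genes tested. The median log2 change was -0.09 over the lists, -0.04 over the 906 and 0.00 over all genes tested.

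Lists that held more genes lower than higher at that unadjusted p included water deficit and abscisic acid, with 5 of 7 lower and a median of -0.61, and heat shock, with 3 of 7 lower and a median of -0.39. Nitrogen assimilation had 3 of 11 lower and 1 higher, and starch and sucrose 3 of 10 lower and 1 higher. Polyamine and alkaloid had 2 of 8 lower, jasmonate and wounding 2 of 8, ethylene 2 of 11, carotenoid 2 of 12, phenylpropanoid 2 of 21, and photosystem and light harvesting 1 of 19. On the other side, cell division and histones had 4 of 15 higher, isoprenoid 2 of 11, chlorophyll 1 of 11 and pathogenesis related 1 of 10. The Calvin cycle had 0 of 5 in either direction. The functions of the other 91 members are not annotated in the sources used here.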

How the data were processed

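For each of the 12 libraries the authors deposited raw counts per gene, as whole numbers. HISAT2 2.1.0, SAMtools and bedtools 2.25.0 are named in the submitters' processing notes. No source used here gives a genome build, an annotation, a rule for counting or the strand setting. Coordinates are therefore left out. Per the labels' protocols, a directional kit was used on RNeasy-purified RNA. Reads of near-identical copies, common in this allotetraploid, may be split.

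Of 61526 identifiers, 49014 matched a reference gene table of assembly ASM71507v2, used for names and gene order. CPM was computed from column totals of 13536964 to 18444571 counts. The test was edgeR's robust quasi-likelihood fit (version 4.0.16, R 4.3.3) after TMM scaling and filterByExpr at a minimum count of 10, adjusted by Benjamini-Hochberg over all 39207 genes kept. It was fitted once to all 12 libraries, leaving 8 residual degrees of freedom. Changes are given as the log2 values of the fit, each with its standard error (SE). Alternatives were DESeq2 1.42.0, limma-voom (limma 3.58.1), RLE size factors, no filter, no robust fit, a replicate block, leaving out each library or line P3.9a, and other limits and scalings of the rule. Calls against CK are descriptions, since the rule used that contrast.

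The members and lists were chosen with earlier results of these data known. Genes were named by rule: members with a symbol, the 12 lowest by share of CK, the 6 with the highest CK mean, those nearest the limits, the 5 with the smallest p among lines, those called, and neighbouring members. No pair of libraries agreed within sampling noise (lowest chi-square per degree of freedom 5.09). The labels do not say how many plants went into a library, so p-values measure the spread between these libraries, which may be technical in part.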

Additional observations from a re-analysis of the deposited data

How the results depend on the processing

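Of 700 single-gene values for 35 named members, 562 kept their side of the threshold, 64 no longer passed it and 74 newly passed it; their direction against CK was fixed by the rule and is no sign of stability. Counts of calls moved. Brackets after the counts of members below give all genes called lower in the same fit or fits. Members called in the mean of the 3 lines were 10 (12) and became 44 with no low-count filter (72) and 84 with DESeq2 (337). They were 6 with limma-voom (8), 36 without line P3.9a (90), and 2 to 80 when 1 library was left out (4 to 525). In P2.4a the count was 1 (2), and it was 32 with DESeq2 (89) and 2 without line P3.9a (12). It was 0 to 8 when 1 library was left out (0 to 35). In P3.9a it was 5 (8), and 11 with no filter (17) and 52 with DESeq2 (168). It was 8 without both P3.9a replicate 1 and CK replicate 3 (18), and 2 to 14 when 1 library was left out (3 to 54). In P9.10a it was 2 (3), and 4 with no filter (7), 45 with DESeq2 (117) and 6 without line P3.9a (10). It was 1 without both libraries (4), and 0 to 5 when 1 library was left out (1 to 9). Among lines DESeq2 called 1 member, and leaving out 1 library gave 0 each time. Over all genes, calls in the mean of the lines (15) became 82 with no filter, 453 with DESeq2, 25 with no robust fit, 113 without line P3.9a, 36 without both libraries, and 6 to 740 when 1 library was left out. Among lines (3 genes) they became 46 with DESeq2, 1 without line P3.9a, and 2 to 6 when 1 library was left out. The rule found 170 genes with TMM scaling, 14 at a fold limit of 0.5, 276 with no fold limit and 83 to 284 when 1 library was left out. The members' median log2 change ran from -0.80 to -0.67 when 1 library was left out. The causes of these moves were not tested, apart from the fold limits, which change by construction.

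Libraries of the same replicate number deviated together in part: of 18 correlations between them, from -0.50 to 0.40, 7 were over 0.1. For replicate 1 they were 0.32 (P3.9a and P9.10a), 0.13 (P3.9a and CK) and 0.38 (P9.10a and CK). In the same order they were -0.37, 0.25 and -0.11 for replicate 2, and 0.40, 0.07 and 0.11 for replicate 3. Correlations with P2.4a libraries ran from -0.50 to 0.15. Unlike replicate numbers were not compared, so a batch shared by number was not tested. The main fit did not pair the libraries. With the replicate block, edgeR called 2 members in the mean of the lines, 2 in P3.9a, 1 in P9.10a and 4 genes in all. The alternative without both libraries was chosen after seeing the data. Planned comparisons with close relatives and searches for promoter motifs were not run, since no sequences were used here. At the lowest levels, with 6 counts in a library, counting error alone is wide.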
